A study of Mus musculus with 2 samples.

Results

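The proteasome is the barrel-shaped protease that degrades ubiquitin-tagged proteins in the cytosol and nucleus. Its core particle, the 20S proteasome, stacks rings of alpha subunits, which gate the entry pore, around rings of beta subunits, some of which carry the proteolytic sites. The 19S regulatory particle caps the core, binds and removes ubiquitin, and threads the substrate inside with a ring of ATPases; dedicated chaperones assemble both particles. T cells use it to remove cell cycle regulators and signalling inhibitors, and interferon exchanges 3 catalytic beta subunits for immunoproteasome subunits that favour peptides for MHC class I.

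Genes of this machinery were followed in regulatory T (Treg) cells of miR-125a KO mice and of their wild type (WT) littermates. Members were the genes whose symbols start with Psma, Psmb, Psmc, Psmd or Psmg, plus Psme3, Psme4, Psmf1 and Pomp, without the immunoproteasome genes Psmb8, Psmb9 and Psmb10. They numbered 45 of the 18193 genes measured and were read by 98 of the array's 45101 probe sets. Chromosomes from a RefSeq gene table placed them on 16 chromosomes, with 9 of them on chromosome 11. The rule also takes Psmc3ip, a partner protein in homologous recombination that is no part of the proteasome. It is counted with the members and described apart.

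One RNA pool per genotype was hybridised to 1 Affymetrix Mouse Genome 430 2.0 array, giving 2 arrays in all. Splenic CD4+ T cells were enriched magnetically and sorted as CD4+CD25hi from mice aged 6 to 8 weeks, and equal RNA amounts of different mice were pooled by genotype. The labels give neither the number of mice in a pool nor whether the deletion is limited to certain cells. The question is how loss of miR-125a alters the Treg transcriptome. With 1 pool per genotype there was no replicate, so no difference below has a test or a p-value, and the values compare these 2 RNA pools only. In such bulk RNA, fewer cells of a type and less RNA per cell cannot be told apart.

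The deleted microRNA is shown because its absence defines the KO pool. Its mature sequence, from RefSeq on GRCm38.p6 at chr17:17830817-17830840 on the plus strand, has the seed (bases 2 to 8) in capitals.
mmu-miR-125a-5p: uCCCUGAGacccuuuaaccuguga
The probe sets used here read messenger RNA, so the microRNA itself was not measured.

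Signals are MAS5 values on a linear scale with the same trimmed mean on both arrays, and each gene was read from its brightest probe set. The log2 ratio is that of the KO over the WT signal after adding 16.3 to both. A mean signal of at least 62.3 was required, which 10590 genes passed. Of the 45 members 43 passed, and Psma8 and Psmb11 did not. Psma8, an alpha subunit of male germ cells, had signals of 19.8 in the KO pool and 2.94 in the WT pool. Psmb11, the beta subunit of thymic cortical epithelium, had 25.01 in the KO pool and 3.32 in the WT pool. Both genes are known for tissues other than spleen, and at these signals no ratio is given. The probe-set SD measures how far the log2 ratios of probe sets of 1 gene disagree on the same arrays, at that signal level. The probe-set SD was taken as the SD of the difference between 2 probe sets of 1 gene, divided by the square root of 2. With genes split by the signal of the brighter probe set into 10 equal groups, it was 0.37 in the dimmest and 0.18 in the brightest. It leaves out variation between mice and any technical error that both probe sets share. A ratio above it has therefore not cleared all technical error.

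Proteasome genes were higher in the miR-125a KO pool by a small and similar amount. Of the 43 members past the minimum, 40 had a log2 ratio above 0, against 51.0% of all genes past the minimum. Their median log2 ratio was 0.25, a 1.19-fold difference, against 0.01 for all genes past the minimum. Of the members, 0 reached 2-fold in either direction, against 1.08% of all genes higher and 1.2% lower. At 1.5-fold 0 members were higher or lower, against 5.0% of all genes higher and 5.79% lower. At a threshold of 25% above the other pool, 10 members were higher in the KO pool, against 15.9% of all genes, and 0 were lower, against 16.0% of all genes. The first count was 18 when the arrays were scaled to equal medians, against 18.8% of all genes. The ratios of 25 members exceeded the probe-set SD at their signal, against 20.9% of all genes, and 0 members lay below 0 by more than that SD, against 19.5% of all genes. Psmc3ip is among the 40, the 10 and the 25. Without it 39 of 42 members were above 0 and 9 were past the threshold of 25%.

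Proteasome transcripts are bright, so the same counts were taken over the 4566 genes whose mean signal lay within the range of the members other than Psmc3ip. Among those genes 53.4% had a ratio above 0, 23.3% exceeded the probe-set SD and 19.4% lay below 0 by more than that SD. At the threshold of 25%, 12.5% were higher in the KO pool and 11.5% were lower. The SD of the log2 ratio over the members was 0.15, against 0.33 over the 4524 genes of that range that are not members. The 2 sets were not matched in signal within the range, over which the probe-set SD fell from 0.25 to 0.18 with rising signal. The members ran from -0.07 for Psmd10 to 0.57 for Psmc5.

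**Figure D1:**
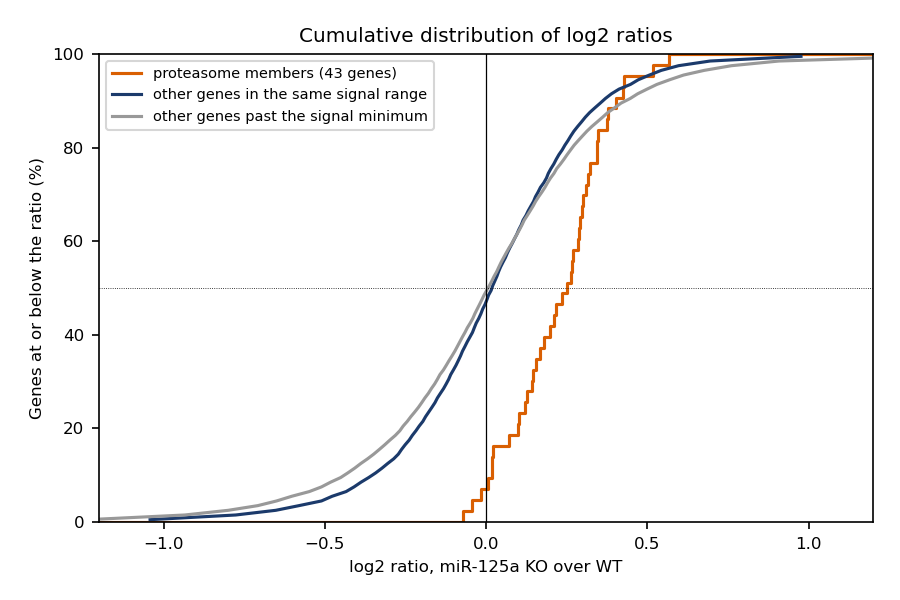
Cumulative share of genes (vertical axis, percent) against the log2 ratio of miR-125a KO over WT (horizontal axis) for the 43 proteasome members past the signal minimum, for the other genes of the same signal range and for all other genes past the minimum. The members' curve crosses 50% at 0.25 and is steeper than the others, which cross it near 0.

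The alpha ring, which forms the outer wall and gate of the core, had the lowest median of the 20S and 19S groups, at 0.17. Of its 7 genes past the minimum, 6 had a ratio above 0 and 0 passed the threshold of 25%. Psma3 had a signal of 12013 in the KO pool and 9967 in the WT pool, a log2 ratio of 0.27. Psma7 had 6969 in the KO pool and 5916 in the WT pool, with a ratio of 0.24. Psma2 stood at 14083 in the KO and 12102 in the WT pool, a ratio of 0.22. These 3 subunits were the highest of the ring. Psma6, at 11257 in the KO and 10029 in the WT pool, and Psma4, at 13859 in the KO and 12432 in the WT pool, had ratios of 0.17 and 0.16. Psma1 was almost level, at 6388 in the KO and 6296 in the WT pool, a ratio of 0.02. Psma5 was the only alpha gene below 0, at 7125 in the KO and 7195 in the WT pool, with a ratio of -0.01. Its other probe set past the minimum went the other way, at 5559 in the KO and 4685 in the WT pool, a ratio of 0.25. On the probe sets used, the ratios of Psma1 and Psma5 were far smaller than the probe-set SD of 0.18. The 0.25 of the other Psma5 probe set was above its probe-set SD of 0.19. Psma1 was below 0 with quantile and loess scaling, at -0.02 and -0.01.

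The beta ring had all 7 genes past the minimum above 0 and a median of 0.30. Psmb3, a structural subunit, was the highest, at 8362 in the KO and 6230 in the WT pool, 1.34-fold higher in the KO pool, a log2 ratio of 0.42. Its other probe set gave 0.32. Psmb2, at 7149 in the KO and 5719 in the WT pool, had a ratio of 0.32, and Psmb4, at 15647 in the KO and 12727 in the WT pool, one of 0.30. The other probe set of Psmb4 showed 0.01, so the gene's value depends on the probes. Psmb1 was the lowest, at 9585 in the KO and 8925 in the WT pool, with a ratio of 0.10, and it was -0.08 when its probe sets were averaged.

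The 3 catalytic subunits of the constitutive core belong to this ring. Psmb5, which cuts after hydrophobic residues, had a signal of 7073 in the KO and 5555 in the WT pool, which is a ratio of 0.35 beside a probe-set SD of 0.18. Psmb7, which cuts after basic residues, stood at 1815 in the KO and 1581 in the WT pool, a ratio of 0.20. Psmb6, which cuts after acidic residues, had 6066 in the KO and 5478 in the WT pool, a ratio of 0.15. All 3 were higher in the KO pool, and Psmb5 alone passed the threshold of 25%.

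Their immunoproteasome counterparts, which the rule leaves out, showed smaller or nearly equal ratios. Psmb8, which replaces Psmb5, had 14202 in the KO and 13536 in the WT pool, a log2 ratio of 0.07. Its dimmer probe set went the other way, at 347 in the KO and 564 in the WT pool, a ratio of -0.68. Psmb9, the counterpart of Psmb6, stood at 10372 in the KO and 10418 in the WT pool, a ratio of -0.01. Psmb10, the counterpart of Psmb7, had 3368 in the KO and 2914 in the WT pool, a ratio of 0.21. The ratio of Psmb5 minus that of Psmb8 was 0.28, beside a combined probe-set SD of 0.26. For Psmb6 minus Psmb9 it was 0.15 beside 0.26, and for Psmb7 minus Psmb10 it was -0.01 beside 0.30. These differences were no larger, or barely larger, than the disagreement between probe sets and have no test. Psme1, a subunit of the interferon-induced PA28 activator, had a ratio of 0.08, at 14664 in the KO and 13873 in the WT pool. Psme2, its partner, shares its probe set with Psme2b and was not counted, at 11011 in the KO and 10643 in the WT pool.

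**Figure D2:**
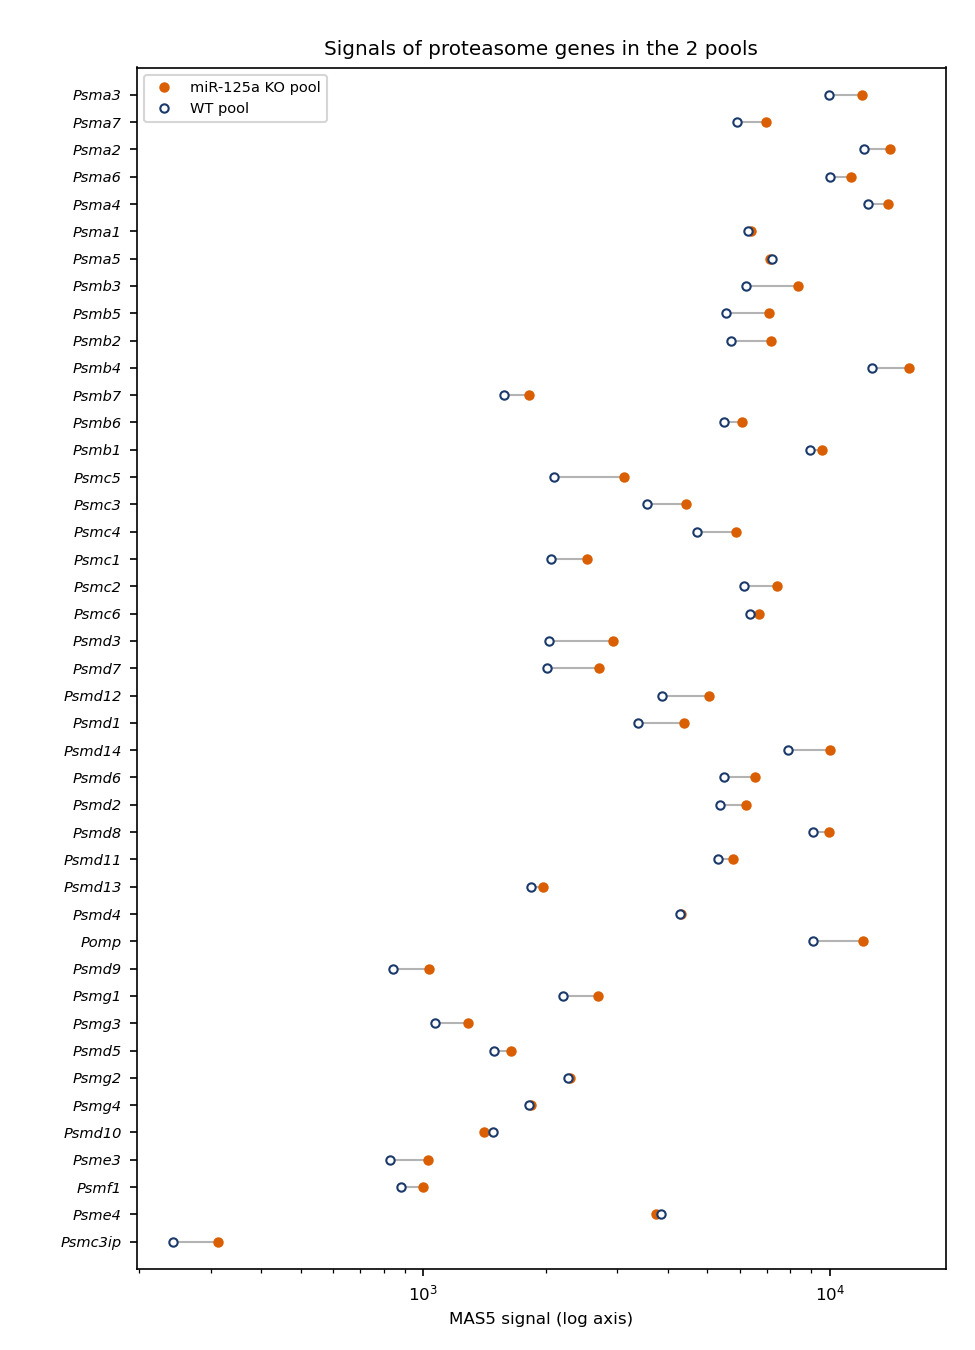
MAS5 signals (horizontal log axis) of the 43 members past the minimum in the miR-125a KO pool (filled) and the WT pool (open), ordered by role and ratio from the alpha ring at the top. Each gene is 1 probe set per array, so a line compares the 2 pools for that gene and signals of different genes are not comparable; in 40 lines the KO point lies to the right.

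The ATPase ring of the 19S particle unfolds substrates and opens the core's gate. All 6 of its genes were above 0, with a median of 0.30. Psmc5 had the highest ratio of all members past the minimum, at 3116 in the KO and 2098 in the WT pool, 1.48-fold higher in the KO pool, and its log2 ratio of 0.57 stood beside a probe-set SD of 0.22. The next 4 lay close together. Psmc3 had 4426 in the KO and 3549 in the WT pool and a ratio of 0.32. Psmc4 had 5865 in the KO and 4723 in the WT pool, with 0.31, and its other probe set gave 0.29. Psmc1, at 2528 in the KO and 2064 in the WT pool, and Psmc2, at 7410 in the KO and 6157 in the WT pool, followed with 0.29 and 0.27. Psmc6 stood apart below them, at 6695 in the KO and 6376 in the WT pool, a ratio of 0.07, and its other probe sets gave 0.10 and 0.16. Subunits present once each in the same ring therefore ranged from 0.07 to 0.57 in ratio.

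The non-ATPase subunits form the scaffold, the ubiquitin receptors and the lid of the 19S particle. Each of the 11 was above 0, and the median was 0.25. The highest was Psmd3, a lid scaffold subunit, at 2921 in the KO and 2035 in the WT pool, 1.43-fold higher with a log2 ratio of 0.52. Psmd7, which pairs with the deubiquitinase Psmd14 in the lid, had 2713 in the KO and 2011 in the WT pool and a ratio of 0.43. A dimmer probe set of Psmd7 gave 0.16. Psmd12, another lid scaffold subunit, had 5030 in the KO and 3864 in the WT pool and a ratio of 0.38. Psmd1, the large scaffold of the base, followed at 4385 in the KO and 3380 in the WT pool, with 0.37. Psmd14, the enzyme that cleaves ubiquitin chains from substrates, stood at 9992 in the KO and 7874 in the WT pool, a ratio of 0.34. These 5 were the non-ATPase genes past the threshold of 25%, and all but Psmd7 were read by a single probe set.

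The remaining non-ATPase genes lay lower. Psmd6, a lid subunit, had 6542 in the KO and 5492 in the WT pool, a ratio of 0.25. Psmd2, the other base scaffold, had 6215 in the KO and 5367 in the WT pool, a ratio of 0.21. Psmd8, at 9931 in the KO and 9093 in the WT pool, and Psmd11, at 5774 in the KO and 5307 in the WT pool, had 0.13 and 0.12; both are lid subunits. Psmd13, also of the lid, had 1969 in the KO and 1836 in the WT pool, a ratio of 0.10, and ratios between -0.41 and 0.31 over its 4 probe sets past the minimum. Psmd4, a ubiquitin receptor, was almost level, at 4306 in the KO and 4289 in the WT pool, a ratio of 0.01. A dim probe set of Psmd4, at 130 in the KO and 25.99 in the WT pool, showed 1.79, while its remaining one gave 0.08. Sem1, a small lid subunit outside the symbol rule, had a ratio of 0.05, at 10674 in the KO and 10311 in the WT pool, and its other probe set gave -0.31.

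**Figure D3:**
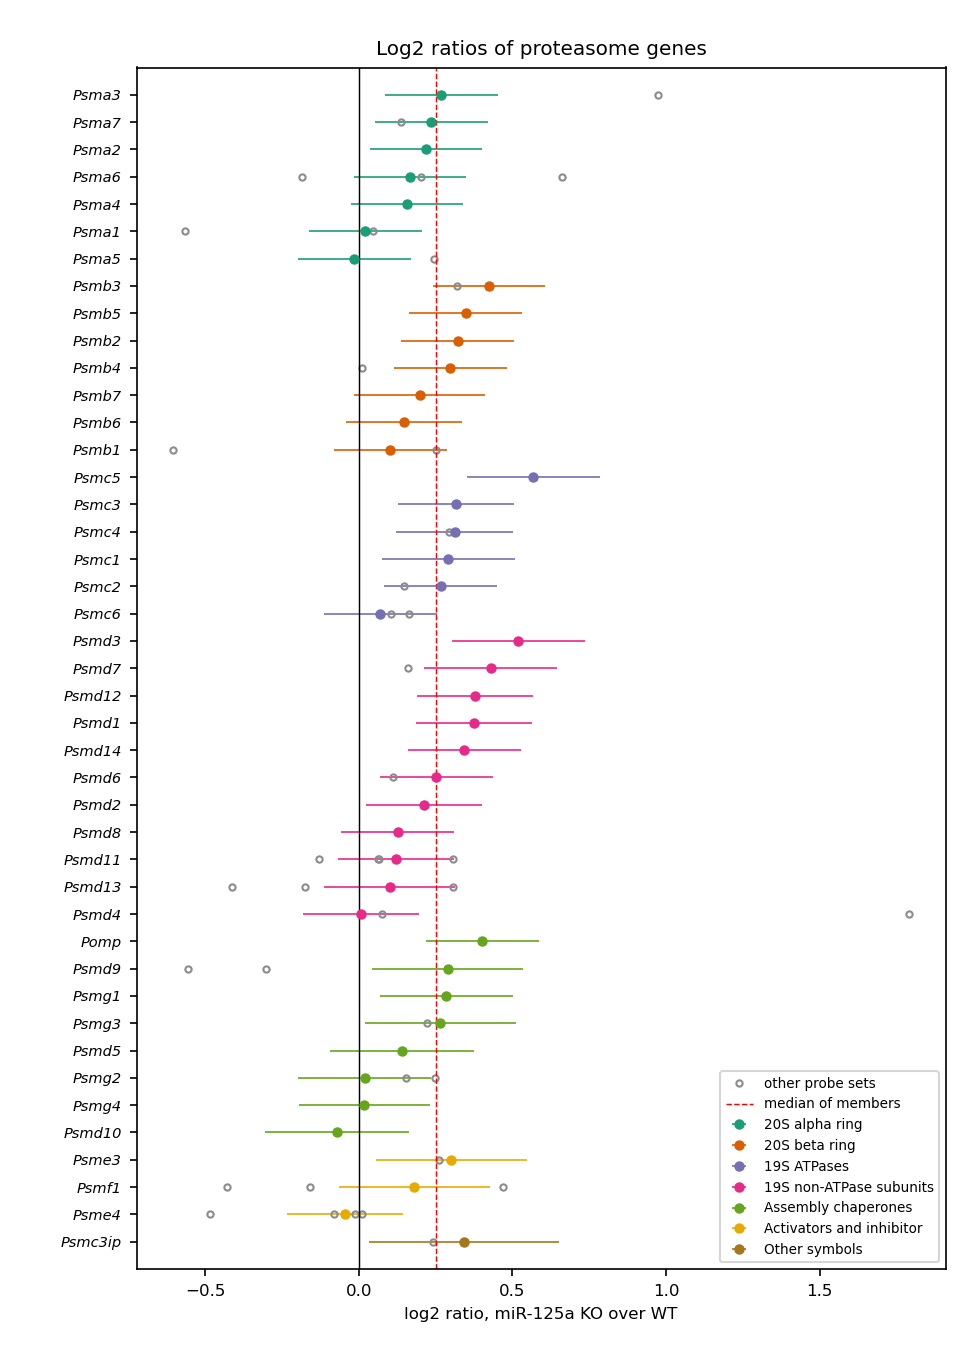
Log2 ratio of miR-125a KO over WT (horizontal axis) for each of the 43 members past the minimum, grouped by role. Filled points are the probe set used with bars of ± 1 probe-set SD at that signal, open grey points are the gene's other probe sets past the minimum, and the dashed line is the members' median of 0.25.

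Assembly chaperones showed a wider mix, with 7 of 8 above 0 and a median of 0.20. Pomp, which completes the beta ring and is consumed as the first substrate of the finished core, was the highest, at 12040 in the KO and 9106 in the WT pool, 1.32-fold higher with a ratio of 0.40. The alpha ring is built on heterodimers of Psmg1 with Psmg2 and of Psmg3 with Psmg4. Psmg1 had 2697 in the KO and 2211 in the WT pool, a ratio of 0.28, and its partner Psmg2 had 2302 in the KO and 2270 in the WT pool, a ratio of 0.02. The other 2 probe sets of Psmg2 past the minimum gave 0.25 and 0.15. Psmg3 stood at 1288 in the KO and 1070 in the WT pool, with 0.26, and Psmg4 at 1845 in the KO and 1822 in the WT pool, with 0.02. In both dimers 1 partner thus had a ratio near that of the subunits and the other a ratio near 0 on the probe set used.

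Psmd9, Psmd5 and Psmd10 guide assembly of the ATPase ring. Psmd9 had 1034 in the KO and 844 in the WT pool, a ratio of 0.29, but its 2 dim probe sets were at -0.55 and -0.30, and the average over probe sets was -0.19. Psmd5 had 1644 in the KO and 1489 in the WT pool, with 0.14. Psmd10, known as gankyrin, was the lowest of all members past the minimum, at 1415 in the KO and 1486 in the WT pool, a ratio of -0.07. It lies on chromosome X, the only member there.

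The alternative caps and the inhibitor did not move as 1 group. Psme3, the nuclear PA28 gamma activator, had 1027 in the KO and 831 in the WT pool, a ratio of 0.30, and its other probe set past the minimum gave 0.26. Psmf1, the inhibitor PI31, had 999 in the KO and 879 in the WT pool, a ratio of 0.18, and ratios between -0.43 and 0.47 over its 4 probe sets past the minimum. Psme4, the large nuclear activator PA200, had 3734 in the KO and 3853 in the WT pool, a ratio of -0.04, and 1 of its 5 probe sets past the minimum was above 0. Psmc3ip, the recombination factor, had 313 in the KO and 243 in the WT pool, a ratio of 0.34, and its other probe set gave 0.24. Without Psmc3ip the median of the 42 remaining members was 0.24, an alternative added after the values were seen.

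The other probe sets of the members gave a second reading that the choice of the brightest one did not use, although both readings come from the same RNA. Of 15 such probe sets with a mean signal of at least 1000, 14 were above 0, with a median of 0.14. Of 26 past the minimum but under 1000, 14 were above 0, with a median of 0.03 and a range from -0.60 to 1.79. The median of the bright ones was below the 0.25 of the probe sets used. Those bright ones cover only 14 genes and the 0.25 covers 43, so the 2 medians do not show that the second reading was lower. At a mean signal of at least 1000, 1 of 14 genes with several probe sets, Psma5, had probe sets of both signs. Over all probe sets past the minimum it was 9 of 23 genes, which beside Psma5 were Psma1, Psma6, Psmb1, Psmd9, Psmd11, Psmd13, Psme4 and Psmf1. No share over all genes is given beside these probe-set counts, so they do not show whether members differ from other genes.

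Genes that work beside the proteasome were read from lists chosen by function, with earlier results of these data known. Proteins that bring ubiquitinated substrates to the proteasome had a median of 0.23, with 7 of 10 genes above 0 and 4 past the threshold of 25% above the WT pool. Over all genes past the minimum, 51.0% were above 0 and 15.9% were past that threshold. Ubqln4, a shuttle protein, had 945 in the KO and 654 in the WT pool, a ratio of 0.52, and its other probe set also gave 0.52. Vcp, the unfoldase that extracts proteins from membranes and complexes, had 9951 in the KO and 7329 in the WT pool, a ratio of 0.44, although a dimmer probe set gave -0.21. Rad23b, a shuttle protein, had 3758 in the KO and 2918 in the WT pool, a ratio of 0.36, with 2 other probe sets above 0 and the dimmest at -0.51. Nsfl1c, a cofactor of Vcp, had 3196 in the KO and 2553 in the WT pool, a ratio of 0.32. Ubqln1, a shuttle protein, had -0.06 on its brightest probe set and 0.54 on the other. The lowest were Ubxn1 and Ufd1, cofactors of Vcp, with -0.11 and -0.07. Ubxn1 stood at 4056 in the KO and 4377 in the WT pool, and Ufd1 at 1125 in the KO and 1179 in the WT pool.

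Among 8 cofactors bound to the proteasome, 6 were above 0, against 51.0% of all genes past the minimum, and the median was 0.16. Uchl5, a deubiquitinase of the 19S particle, had 5070 in the KO and 3174 in the WT pool, 1.59-fold higher with a ratio of 0.67, above every member. Zfand5, an activator of the 19S particle, had 4622 in the KO and 3785 in the WT pool, with 0.29, although the dimmest of its 4 probe sets past the minimum gave -0.62. Usp14, the other proteasomal deubiquitinase, had 0.27, and Txnl1, a thioredoxin-like protein bound to the 19S particle, had 0.22 and 0.20 on its bright probe sets and -0.20 on a dim one. Ecpas, a scaffold that tethers core and cap, had 1650 in the KO and 1847 in the WT pool, a ratio of -0.16, and its 2 other probe sets past the minimum were also below 0, at -0.14 and -0.21. Ube3c, a ubiquitin ligase on the proteasome, had -0.06, at 445 in the KO and 466 in the WT pool. Fbxo7 and Akirin2 lay between Txnl1 and Ube3c, with 0.10 and 0.03.

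Of the transcription list, Nfe2l1 is the factor known to raise proteasome genes when degradation falls short. It had 1759 in the KO and 1348 in the WT pool, a ratio of 0.38 beside a probe-set SD of 0.24. Ngly1, the enzyme that deglycosylates the Nfe2l1 protein for its activation, had 1461 in the KO and 1741 in the WT pool, a ratio of -0.25. Nfe2l2, a relative of Nfe2l1 that controls antioxidant genes, had -0.11, at 1000 in the KO and 1082 in the WT pool. Genes of the small Maf proteins, partners of both factors, went both ways, with Mafk at 0.13, Mafg at 0.10 and Maff at -0.20. The list's median over 6 genes past the minimum was -0.01. Nfe2l3, another relative, was below the minimum. Of the ubiquitin genes and activating enzymes, Uba6 alone had a probe set naming 1 gene, with a ratio of 0.04 and between -0.22 and 0.35 over its probe sets past the minimum.

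**Figure D4:**
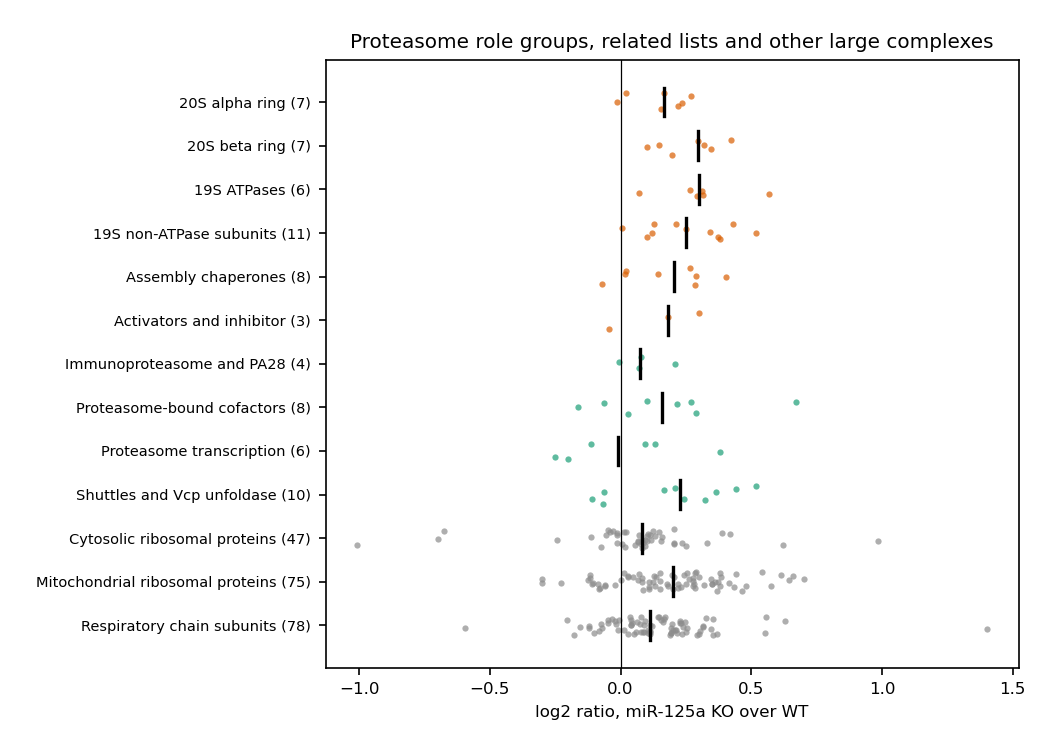
Log2 ratio of miR-125a KO over WT (horizontal axis) for each gene past the minimum, in the proteasome role groups (orange), the related lists (green) and 3 other large complexes (grey); black bars are medians and numbers of genes are in brackets. Medians of the role groups run from 0.17 to 0.30, that of the transcription list is -0.01.

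Other large complexes built from many subunits were set beside the proteasome as a description, without a test of the difference. Over all genes past the minimum, 51.0% were above 0. Mitochondrial ribosomal proteins had a median of 0.20, with 61 of 75 genes above 0. The respiratory chain had 0.11, with 61 of 78 above 0, and cytosolic ribosomal proteins had 0.08, with 34 of 47 above 0. The proteasome median of 0.25 was above all 3 but close to that of the mitochondrial ribosome. The 6 markers of dividing cells were also above 0, with a median of 0.22 and summed signals of 45559 in the KO and 38978 in the WT pool. Their part in the proteasome difference was not tested.

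Markers of the sorted cells were present and went both ways. Il2ra, the CD25 chain used in the sort, had 18551 in the KO and 15390 in the WT pool, a ratio of 0.27. Its other probe set was almost level, at 6195 in the KO and 6099 in the WT pool, a ratio of 0.02. Of the other Treg markers, Ikzf2 had a ratio of 0.45 and Ctla4 one of 0.02. Cd4, also used in the sort, had 641 in the KO and 715 in the WT pool, a ratio of -0.15. Cd3e had 1438 in the KO and 1920 in the WT pool, a ratio of -0.41, and Cd3g 11391 in the KO and 11328 in the WT pool, a ratio of 0.01. Foxp3, which defines Treg cells, was lower, at 694 in the KO and 1631 in the WT pool, and its part in the proteasome values was not tested. Some markers of other spleen cells passed the minimum. Cd8a and Cd8b1, the 2 CD8 chains, both did, with ratios of -0.54 and -0.38 on the probe sets used. They summed to 627 in the KO and 873 in the WT pool. The 4 myeloid markers summed to 297 in the KO and 417 in the WT pool. Of these, Csf1r and Fcer1g passed the minimum, with ratios of -0.30 and -1.02, and Lyz2 and Itgam did not. The 2 B cell markers were below the minimum in both pools, as were the NK cell marker and both erythroid markers. Of 3 plasma cell markers, Mzb1 alone passed it.

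Promoter sequences of 37 of the 45 members were matched in RefSeq (GRCm38.p6), covering 250 bases before to 50 after the start site, and 4 motifs were searched on both strands. CCGGAAG, the core bound by ETS factors, was present in 16 of 37 members (43.2%), against 21.6% of the other genes past the minimum and 9.93% of all genes in the table. TGACNNNGC, the core of the antioxidant response element bound by Nfe2l1 and Nfe2l2, was in 6 of 37 (16.2%), against 16.9% of the other genes past the minimum and 13.99% of all genes. CCAAT was in 37.8% of members, against 42.8% of other genes past the minimum and 41.1% of all genes. GGGCGG, a GC box, was in 56.8% of members, against 69.4% of other genes past the minimum and 38.2% of all genes. Members with CCGGAAG had a median log2 ratio of 0.26 over 16 genes, against 0.23 over 20 genes without it. The 2 sets overlapped, with ratios from -0.04 to 0.40 with the motif and from -0.07 to 0.57 without it. For TGACNNNGC the medians were 0.22 over 6 genes with it and 0.24 over 30 without. Such a match is a string of letters and does not show binding.

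The 80 bases before the start site are shown for 5 promoters that hold a match there, to show the motifs in members with higher and lower ratios, with matches in capitals. CCGGAAG, or its reverse complement, is marked in Psmd12 and Pomp (ratios 0.38 and 0.40) and in Psme4 (-0.04). TGACNNNGC is marked in the catalytic genes Psmb5 and Psmb6 (0.35 and 0.15). Windows are at chr11:107479448-107479527 for Psmd12, chr5:147860548-147860627 for Pomp, chr11:30771695-30771774 for Psme4 and chr11:70525277-70525356 for Psmb6, all on the plus strand, and at chr14:54617996-54618075 on the minus strand for Psmb5.
Psmd12: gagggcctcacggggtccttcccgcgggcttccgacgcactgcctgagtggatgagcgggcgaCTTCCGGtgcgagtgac
Pomp: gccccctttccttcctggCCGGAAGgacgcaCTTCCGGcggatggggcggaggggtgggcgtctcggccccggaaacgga
Psme4: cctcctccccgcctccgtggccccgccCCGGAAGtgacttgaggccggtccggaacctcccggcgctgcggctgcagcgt
Psmb5: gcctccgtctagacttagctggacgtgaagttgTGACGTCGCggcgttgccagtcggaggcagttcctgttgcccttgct
Psmb6: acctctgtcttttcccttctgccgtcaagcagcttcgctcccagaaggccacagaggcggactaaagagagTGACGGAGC
Pomp holds the ETS core once on each strand, and Psme4, with a ratio below 0, also holds it.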

How the data were processed

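Treg RNA pools of miR-125a KO and WT mice were read on 1 array each. The authors deposited log2 values of 45101 probe sets, made with MAS5 per the submitters' processing notes (no version). Here they were turned to linear signals, and the trimmed mean (2% from each end) was 500.0 on both arrays. Mismatch subtraction in MAS5 makes low signals noisy. The number of arrays limits the precision.

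Genes came from platform annotation naming 1 gene, with the probe set of highest mean signal. The pseudocount of 16.3 is the 25th percentile and the minimum of 62.3 the median over probe sets without controls. Ratios on this scale understate dim genes. The probe-set SD came from 5037 genes in 10 signal groups. With 1 array per genotype no test was run. Members and lists were chosen with earlier results of these data known. The signals of all members are given, with those past 1.25-fold (25% above the other pool) and those with probe sets of both signs named. In related lists of up to 8 genes all genes past the minimum were named, and in longer lists the 2 highest and 2 lowest. Usp14, Txnl1, Fbxo7, Akirin2, Rad23b, Nsfl1c and Ubqln1 were written in after their values were seen. Alternatives were 3 scalings, 2 pseudocounts, 2 filters, averaging over probe sets, and omitting probe sets named _s_at, _x_at or _a_at, which may read more than 1 transcript. The ratio script was tested on simulated data. Python 3.11.15, pandas 2.3.3 and statsmodels 0.14.6 were used.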

Additional observations from a re-analysis of the deposited data

How the results depend on the processing

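The median log2 ratio of the proteasome members ranged from 0.21 (mean over probe sets) to 0.29 (equal array medians) across the 9 alternatives, against 0.25 as reported, and the share of members above 0 from 86.0% (37 of 43, mean over probe sets) to 95.3% (41 of 43, equal array medians). The members' median minus that of all genes was 0.19 with quantile and with loess scaling, against 0.24 as reported, and 38 of 43 members were then above 0. At the threshold of 25%, 18 members were higher in the KO pool with equal array medians in place of 10. That scaling also lifted all genes, with 18.8% past the threshold in place of 15.9%, and left the members' median minus that of all genes at 0.25. The count of lower members was 0 throughout. With no filter, 1 member reached 2-fold in place of 0. That member was Psmb11, whose signal is below the minimum in both pools. Of 189 values compared, 187 stayed within the tolerance (1.5 times for counts, 0.19 for medians, the median probe-set SD of the members) and 0 medians larger than it reversed. Single genes were less firm: the signs of Psma1, Psma5, Psmb1, Psmd4, Psmd9 and Psmd13 turned in at least 1 of the alternatives. No paired analysis was possible because each genotype had 1 pool. Detection at low signal limits Psma8 and Psmb11, and variation between mice is unknown.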
